A study of Mus musculus with 3 samples.

Results

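The cells described here are the Prkg2 Matn3 chondrocytes, non-cycling cells with a growth plate cartilage profile found among sorted Alcam+Sca-1- bone-lining cells (BLCs) of wild-type mice. They were picked by measured transcripts. Barcodes with at least 200 detected genes and at most 20% mitochondrial transcripts were kept, and a cell was a member when it held at least 3 unique molecular identifiers (UMIs, each standing for 1 captured transcript) of Prkg2 and at least 5 of Matn3, held no UMI of the leukocyte gene Ptprc, and did not hold both proliferation genes Mki67 and Top2a. Of 19482 filtered barcodes, 2182 met the rule: 4 of 2527 in replicate 1, 1172 of 6725 in replicate 2 and 1006 of 10230 in replicate 3. The 3 libraries form 1 group with no treatment. Femora, tibias and iliac bones of young adult mice were flushed, fragmented and digested with collagenase, and cells that were CD45-, Ter119-, CD31-, Alcam+ and Sca-1- were sorted and profiled with a droplet 3′ kit. Neither the animals behind each library nor any batch is named by the labels, so the spread between libraries may in part be technical. The study asked which stromal cells in this sorted fraction carry Itga8; the cartilage cells caught in the same sort are the subject here.

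The growth plate is the disc of cartilage near the end of a growing long bone. Its chondrocytes lie in zones: resting cells at the top, columns of flattened dividing cells below them, then prehypertrophic and hypertrophic cells that enlarge before the cartilage is replaced by bone. PTHrP (Pthlh) from the upper zones and Indian hedgehog (Ihh) from prehypertrophic cells set the pace of that passage, and C-type natriuretic peptide acts through its receptor Npr2 and the cGMP-dependent kinase Prkg2 to sustain column growth. Loss of Prkg2 is known to cause dwarfism in rodents, and Matn3, a cartilage matrix adaptor protein, is mutated in a human skeletal dysplasia.

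Prkg2 lies on chromosome 5 (98929773 to 99037351, minus strand, mouse build GRCm38) and Matn3 on chromosome 12 (8947929 to 8972028, plus strand). Among the members, Prkg2 ran from 3 UMIs per cell through a median of 9 to 242 in replicate 2, and from 3 through 6 to 156 in replicate 3. Matn3 ran from 5 through 37 to 172 UMIs in replicate 2 and from 5 through 21 to 91 in replicate 3. The 4 cells of replicate 1 held 7, 14, 100 and 117 Prkg2 UMIs and 22, 8, 11 and 13 Matn3 UMIs in the same order. The median member thus sat well above the Matn3 threshold and nearer to the Prkg2 threshold. The cells made up 0.158% of replicate 1 (exact Clopper-Pearson 95% interval 0.0431 to 0.405%), 17.4% of replicate 2 (16.5 to 18.4%) and 9.83% of replicate 3 (9.26 to 10.4%). These intervals cover counting error only, and those of the 3 libraries did not overlap. No barcode of a member was shared between libraries.

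A median member carried 19830.5 UMIs and 4268 genes in replicate 2, and 12270 UMIs and 3325 genes in replicate 3, against library medians of 10034 and 5995 UMIs. A rule set in UMIs favours deep cells. When every cell was first thinned to 5000 UMIs, 943 cells met the same rule in place of 2182. Members held 31.1% of all UMIs in replicate 2 but 81.0% of its Prkg2 UMIs and 61.6% of its Matn3 UMIs, and in replicate 3 the corresponding shares were 18.6%, 68.7% and 46.4%. In replicate 1 the 4 cells held 34.9% of the Prkg2 UMIs of the library. All held cartilage transcripts, with 71 to 519 Col2a1 UMIs, 37 to 91 Acan UMIs and 17 to 63 Fxyd2 UMIs each. Their median of 130.5 Col2a1 UMIs was below the 816 and 462.5 of members in replicates 2 and 3. Other markers were uneven: Col9a1 ran from 1 to 27 UMIs, Epyc from 0 to 11 and Ppa1 from 0 to 397. Cytl1, a gene of the joint surface, ran from 1 to 429 UMIs. These cells were too few for a summed profile. The members' side of every test thus rests on replicates 2 and 3, while replicate 1 still entered with other populations. Of the cells that passed both thresholds, 3 in replicate 2 and 7 in replicate 3 were left out for a Ptprc UMI.

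Levels are given as CPM, meaning the UMIs of a gene scaled to a total of 1000000 UMIs of all genes summed over the cells of a population in 1 library, always for replicate 2 and then replicate 3. Cells on either side of the limits were set side by side without a test. In replicate 2 the 138 cells with exactly 3 Prkg2 UMIs held 779 CPM of Fxyd2 and the 156 cells with 2, which were just outside, held 887. In replicate 3 the same edge read 1213 against 846 CPM. At the Matn3 limit, the 22 and 29 cells with 5 UMIs held 579 and 791 CPM of Fxyd2, and the 18 and 32 cells with 4 held 403 and 450.0. Other genes stepped more at the Matn3 limit in replicate 2, where cells with 5 and cells with 4 UMIs read 993 against 249 CPM of Ppa1, 106 against 23.7 CPM of Epyc, 282 against 769.6 CPM of Prkg1 and 6787 against 562 CPM of Prg4. In replicate 3 the same edge read 689 against 386 CPM of Ppa1, 89.3 against 72.3 CPM of Epyc, 247 against 454 CPM of Prkg1 and 6003 against 1675 CPM of Prg4. At the Prkg2 limit Ppa1 read 1836 inside and 2058 CPM outside in replicate 2, and 2561 and 1913 CPM in replicate 3.

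The members were set beside 3 populations of the same libraries. Cycling cells of the same gate passed both thresholds with Mki67 and Top2a detected (106 and 69 cells). Ibsp-high cells held at least 50 UMIs of Ibsp (bone sialoprotein, made by late chondrocytes and osteoblasts) and some Acan (1340 and 2118 cells). The other Acan cells held at least 3 UMIs of aggrecan and belonged to none of these (2638 and 4454 cells).

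Prkg2 stood at 678 and 712 CPM in the members, 62.1 and 87.3 CPM in other Acan cells and 45.4 and 45.9 CPM in Ibsp-high cells, a gap that the rule itself makes. The other listed markers followed. Fxyd2, a small regulator of the sodium pump, read 1242 and 1236 CPM against 314 and 317 and 23.5 and 46.5. Ppa1, a cytosolic pyrophosphatase, read 3392 and 2985 CPM against 474 and 544 and 164 and 241. Epyc, a small leucine-rich proteoglycan of growth plate cartilage, read 235 and 217 CPM against 52.3 and 47.3 and 5.42 and 9.17, and Col9a1, a chain of the cartilage collagen IX, read 3547 and 3365 CPM against 1537 and 1460.3 and 574 and 622. In each of these genes both libraries of the members lay above both libraries of the other Acan and Ibsp-high cells. Cycling cells of the gate lay close to the members, with 3795 and 3191 CPM of Ppa1 and 1059 and 851 CPM of Fxyd2. The markers were proposed from these data, so the values describe the cells and were not tested.

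**Figure D1:**
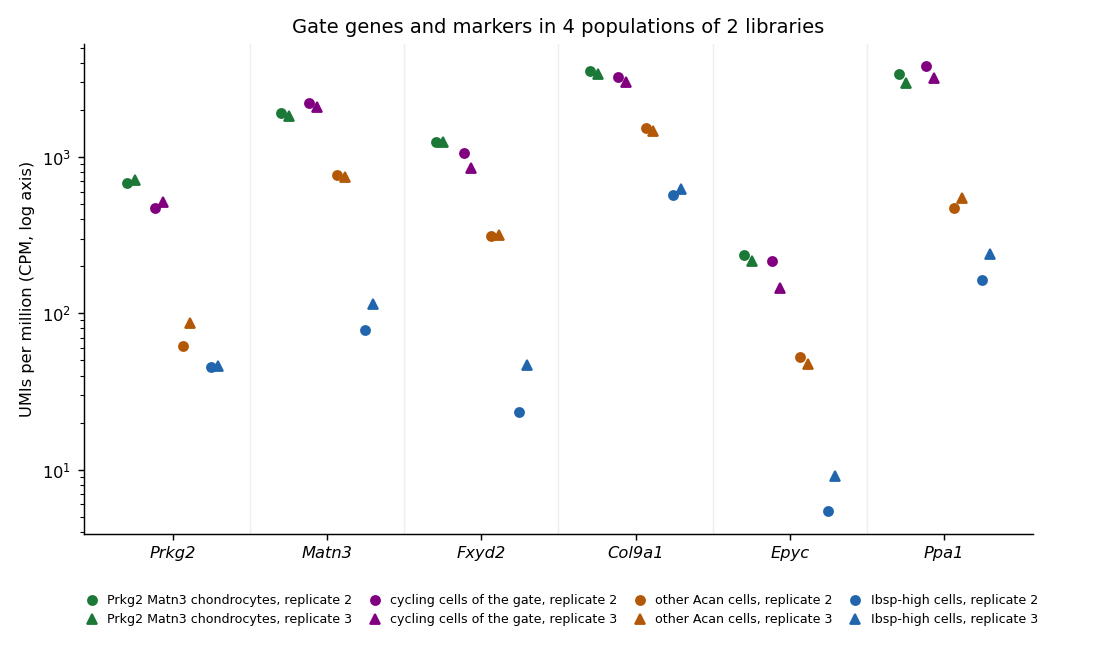
CPM (log axis) of the 2 gate genes and the 4 further markers, 1 point per library and population (circles replicate 2, triangles replicate 3). For Fxyd2 the members lie at 1242 and 1236 CPM and the Ibsp-high cells at 23.5 and 46.5 CPM.

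The label of growth plate chondrocyte was checked against cartilage genes and against genes of other cell types. Every member held Acan, and Col2a1, the main collagen of cartilage, ran from 26 through a median of 816 to 5751 UMIs per cell in replicate 2 and from 27 through 462.5 to 1999 in replicate 3. Against that, the 10 haematopoietic markers summed to 10.3 and 15.2 CPM in the members and to 56602 and 65981 CPM in the cells used as a reference for free RNA, which had at least 2 Ptprc UMIs and no Acan UMI (42 and 72 cells, median 21745.5 and 11251 UMIs). The 8 erythroid markers summed to 5.71 and 11.6 CPM, the 8 endothelial markers to 8.81 and 12.6 CPM, and the 10 tendon and fibroblast markers to 22.9 and 27.8 CPM. The 6 mural markers summed to 38.4 and 46.9 CPM and the 8 reticular markers to 245 and 268 CPM. The 10 osteoblast markers were not at such low levels, summing to 1246 and 1123 CPM in the members, 2051 and 1855 CPM in other Acan cells and 5564 and 4431 CPM in Ibsp-high cells. Col1a2 made up 707 and 635 CPM of the members' sum, Col1a1 300.4 and 276 CPM and Bglap (osteocalcin) 129 and 97.7 CPM, while Ifitm5 stood at 0.857 and 0.541 CPM and Mepe at 0.490 and 0.387 CPM. Any part of osteoblast RNA in the results below was not tested. Matn1, which marks cartilage of the growth plate and trachea, read 43.4 and 26.8 CPM. The matrix genes matched the label, although Ihh and Col10a1, which mark the lower zones, were found in few of the cells.

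Several bone and surface-zone transcripts in the members were concentrated in few cells. In replicate 2 the top 12 member cells held 63.0% of all Prg4 UMIs of the members, 83.3% of Col10a1, 78.1% of Col1a1, 50.02% of Ibsp and 62.5% of Spp1, and in replicate 3 the top 10 cells held 48.4%, 72.3%, 62.01%, 34.7% and 40.2%. For Col10a1, the collagen of hypertrophic cells, 3.98% and 4.74% of members thinned to 5000 UMIs held a UMI against 4.88% and 4.55% of the reference cells, which is no more than background. For Prg4 the shares were 54.8% and 72.8% against 43.9% and 53.0%, for Ibsp 31.5% and 39.0% against 31.7% and 37.9%, and for Spp1 22.2% and 29.5% against 17.1% and 21.2%. Among the members, 48 and 57 cells held at least 50 Ibsp UMIs. Leaving out likely doublets, meaning cells above the 98th percentile of UMIs or with 3 or more UMIs summed over 11 markers of other cell types, kept 1820 of the 2182 members.

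The first question the populations allow is what sets the members apart from the rest of the cartilage cells of the sort. A single edgeR quasi-likelihood fit was made over 10 summed profiles with the library as a block, and p-values were adjusted by Benjamini-Hochberg over 16522 genes. Members are a selected set of cells, so these p-values describe how the difference compares with the spread of the libraries and not whether the cells form a type of their own. Against other Acan cells, 6636 genes (40.2%) passed an adjusted p of 0.05, 3134 of them higher in the members (19.0%) and 3502 lower (21.2%). Without the library block the count was 3229. Without replicate 1, which has too few members for a sum but enters with its other populations, it was 8593, and it fell to 791 without replicate 2 and to 1207 without replicate 3, where 1 library of members was left.

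Most cartilage matrix genes were higher in the members. Of 19 tested genes of that list outside the gate and markers, 14 were higher and 2 lower in the members, with a median log2 fold change of 0.81 against -0.02 over all genes tested. Col2a1 read 43284 and 40158 CPM in the members and 21051 and 19738 CPM in other Acan cells (log2 fold change 1.39 ± 0.35, adjusted p = 0.01). The partner chains of collagen IX moved the same way: Col9a3 read 6592 and 5918 against 2812 and 2597 CPM (1.39 ± 0.16, adjusted p = 1.8e-04) and Col9a2 4154 and 4009 against 1951 and 1911 CPM (1.22 ± 0.13, adjusted p = 9.1e-05). Collagen IX coats the surface of the collagen II fibril, and both libraries of the members lay above both libraries of the other cells in each of these genes. Matn1 read 43.4 and 26.8 against 10.4 and 8.17 CPM (1.96 ± 0.15, adjusted p = 3.4e-05). Ucma, a secreted protein of young chondrocytes, read 1995 and 2081 against 1025 and 1027 CPM (1.08 ± 0.12, adjusted p = 1.4e-04). The 2 lower genes were Cilp2, a protein of articular cartilage, at 57.4 and 88.5 against 443 and 443 CPM (-2.64 ± 0.18, adjusted p = 1.7e-05), and Chad, at 2276 and 2780.1 against 3241 and 3883 CPM (-0.47 ± 0.10, adjusted p = 0.0048). Chad did not pass without replicate 2 (-0.49) or without replicate 3 (-0.49). Without the library block the calls of Col2a1 (1.66), Col9a3 (1.80), Col9a2 (1.64), Ucma (1.54), Cilp2 (-2.14) and Chad (-0.33) were lost although each kept its direction. The Col2a1 call was also lost with the gate on thinned cells (0.98). Comp, which bridges collagen fibrils, read 4195 and 3919 against 4125 and 4306 CPM and did not pass (log2 fold change 0.06 ± 0.11, adjusted p = 0.67).

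Many enzymes that sulfate and extend the chains on aggrecan were also higher. Of 25 tested genes of sulfation and glycosaminoglycan synthesis, 15 were higher and 2 lower, with a median log2 fold change of 0.43. Papss2, which makes the active sulfate donor, read 746 and 705 against 451 and 426 CPM (0.83 ± 0.12, adjusted p = 6.9e-04), and Slc35b2, which carries that donor into the Golgi, read 78.7 and 77.02 against 44.04 and 40.8 CPM (0.96 ± 0.11, adjusted p = 1.5e-04). Chst11, a chondroitin 4-sulfotransferase, read 1419 and 1597 against 1000.2 and 1099.8 CPM (0.65 ± 0.13, adjusted p = 0.0039). Both members' libraries exceeded both libraries of the other cells in these genes, but the differences were under 2-fold. The 2 lower genes were Chst3, a chondroitin 6-sulfotransferase, at 6.57 and 9.74 against 30.2 and 34.2 CPM (-2.01 ± 0.17, adjusted p = 3.4e-05), and Csgalnact2, which starts chondroitin chains, at 75.6 and 84.9 against 181 and 194 CPM (-1.33 ± 0.22, adjusted p = 0.0013). Chst11 and Chst3 thus moved in opposite directions, which is 1 gene each way. Chst15, another sulfotransferase of the list, was among the higher genes. Without replicate 2 the calls of Papss2 (0.78), Slc35b2 (0.99) and Chst11 (0.64) were lost, and without replicate 3 those of Papss2 (0.91) and Chst11 (0.72). Chst11 was not called without the library block (0.85) or with the gate on thinned cells (0.32) either.

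Collagen folding and export followed the matrix genes, with 15 of 28 genes higher, 3 lower and a median log2 fold change of 0.45. Serpinh1, the collagen chaperone, read 1702 and 1495 against 887 and 846 CPM (1.09 ± 0.19, adjusted p = 0.0017). Bmp1, a protease that trims procollagen, read 94.96 and 88.9 against 43.2 and 41.9 CPM (1.20 ± 0.11, adjusted p = 4.2e-05), and Pcolce2, which enhances that cleavage, read 854 and 851 against 406 and 408 CPM (1.35 ± 0.29, adjusted p = 0.0045). The Pcolce2 call was lost with the gate on thinned cells (0.89). Hspa5, the general chaperone of the endoplasmic reticulum, was not part of this rise: it read 871 and 1002 against 1138 and 1375 CPM (-0.39 ± 0.12, adjusted p = 0.024). The call was lost without replicate 2 (-0.47), without replicate 3 (-0.35), without the library block (-0.41) and with the gate on thinned cells (-0.43).

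**Figure D2:**
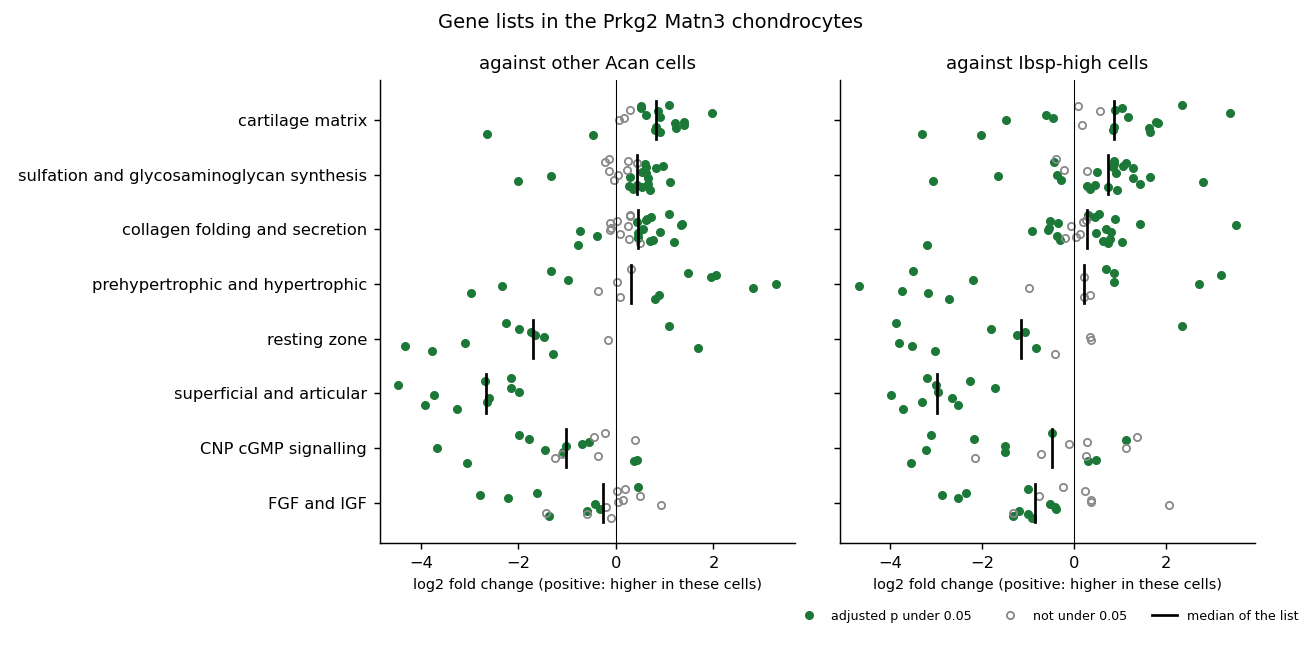
Log2 fold change of each tested gene of 8 lists in the members against other Acan cells (left) and Ibsp-high cells (right), with 1 point per gene, filled where the adjusted p was under 0.05, and a bar at the median of the list. All 10 superficial and articular genes lie below 0 in both panels, and the medians of the cartilage matrix list lie at 0.81 and 0.86.

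Genes of the joint surface formed the opposite pole. All 10 tested genes of the superficial and articular list were lower, with a median log2 fold change of -2.66. Prg4, the lubricin of the joint surface, read 1202 and 2772 CPM in the members and 31164 and 37154 CPM in the other Acan cells (-4.46 ± 0.50, adjusted p = 1.5e-04). Cilp read 102 and 183 against 2084 and 2290.4 CPM (-3.92 ± 0.25, adjusted p = 1.2e-05), Cytl1 709.6 and 1303 against 10688 and 12423 CPM (-3.74 ± 0.33, adjusted p = 4.0e-05) and Abi3bp 40.7 and 59.9 against 457 and 462 CPM (-3.25 ± 0.20, adjusted p = 9.5e-06). The levels of Prg4, Cilp and Cytl1 in the members rest largely on few cells: the top 12 and 10 cells held 48.5% and 42.0% of the Cilp UMIs and 39.1% and 27.1% of the Cytl1 UMIs.

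Resting zone genes were lower too, 9 of 12 tested, with a median log2 fold change of -1.69. Gas1, a co-receptor for hedgehog proteins, read 20.6 and 36.7 against 512 and 508 CPM (-4.33 ± 0.34, adjusted p = 3.1e-05), Clu 164 and 236 against 2313 and 2492 CPM (-3.78 ± 0.32, adjusted p = 3.6e-05) and Sfrp5, a secreted Wnt inhibitor, 26.7 and 29.8 against 99.5 and 89.2 CPM (-1.73 ± 0.20, adjusted p = 1.8e-04). Pthlh itself read 17.1 and 16.7 against 49.95 and 47.9 CPM (-1.48 ± 0.13, adjusted p = 3.7e-05). Without the library block Sfrp5 (-1.32) and Pthlh (-1.17) were not called. The 2 higher genes of the list were Ucma and Foxa2. Foxa2, a transcription factor known from prehypertrophic cells, read only 7.92 and 5.65 against 1.91 and 2.59 CPM (1.68 ± 0.26, adjusted p = 7.6e-04). Its call was lost without replicate 2 (1.05) and with the gate on thinned cells (1.07).

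The receptor side of the PTHrP loop went the other way. Pth1r, the receptor for PTHrP, read 343 and 276 CPM in the members and 106 and 105 CPM in other Acan cells (1.95 ± 0.46, adjusted p = 0.0078). The members thus held more receptor and less ligand transcript than other Acan cells. The Pth1r call was lost with the gate on thinned cells (1.44). Panx3, a channel of prehypertrophic cells, read 49.6 and 35.6 against 5.39 and 5.10 CPM (3.28 ± 0.43, adjusted p = 3.5e-04), a call lost with DESeq2 (3.62). The osteochondral transcription factor Sp7 read 35.99 and 37.4 against 13.2 and 15.3 CPM (1.48 ± 0.17, adjusted p = 1.7e-04). Col10a1 was lower, at 42.8 and 38.5 against 234 and 263 CPM (-2.96 ± 0.69, adjusted p = 0.0071). Of the 15 tested genes of the prehypertrophic and hypertrophic list, 7 were higher and 4 lower, with a median log2 fold change of 0.30. The early genes of the list and the late ones did not move as a block. The downstream hedgehog genes Ptch1 and Gli1 read 131 and 117 and 10.8 and 13.9 CPM against 123 and 102 and 15.2 and 12.4 CPM, and neither passed.

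In the cGMP pathway, Prkg2 is set by the rule, and of the 17 tested genes of the list 2 were higher (Furin and Gsk3b), 9 lower and 6 not called (median log2 fold change -1.02). Prkg1, the other cGMP-dependent kinase, read 108 and 148 CPM in the members, 540.1 and 484 CPM in other Acan cells (-1.996 ± 0.18, adjusted p = 5.0e-05) and 1081 and 927 CPM in Ibsp-high cells (-3.12 ± 0.19, adjusted p = 1.1e-06). Both libraries of the members lay below those of the other Acan and Ibsp-high cells. Npr2, the receptor for C-type natriuretic peptide, was lower in the members too, at 33.1 and 37.7 CPM against 75.4 and 76.5 CPM (-1.09 ± 0.13, adjusted p = 1.9e-04) and 90.8 and 92.3 CPM (-1.503 ± 0.13, adjusted p = 9.3e-06). Among members thinned to 5000 UMIs, 16.1% and 15.1% held an Npr2 UMI against 28.2% and 27.8% of other Acan cells, and none of the thinned reference cells did. Nppc, the gene for the peptide, read 1.47 and 0.541 CPM in the members and did not pass in either comparison. The phosphodiesterase Pde10a read 31.8 and 33.4 against 68.3 and 66.3 CPM (-1.02 ± 0.12, adjusted p = 2.2e-04), a call lost without replicate 2 (-1.11) and without the library block (-0.82). Corin, a protease that cleaves a natriuretic peptide precursor, read 1.63 and 3.33 against 17.6 and 19.8 CPM (-3.04 ± 0.29, adjusted p = 6.3e-05).  The soluble guanylate cyclase subunits Gucy1a1 and Gucy1b1 were at 0.232 CPM or less.

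**Figure D3:**
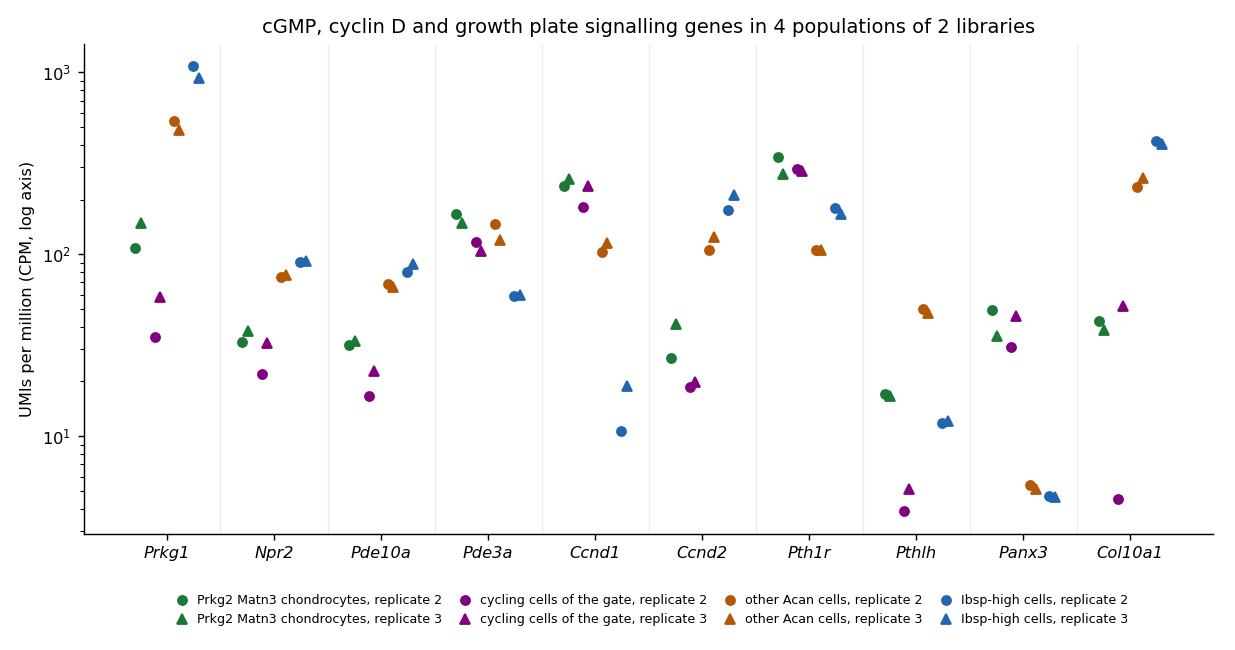
CPM (log axis) of cGMP pathway genes, cyclins D1 and D2 and growth plate signalling genes, 1 point per library and population (circles replicate 2, triangles replicate 3). Prkg1 lies lower in the members than in other Acan and Ibsp-high cells, and Ccnd1 and Ccnd2 take opposite orders over those 3 populations.

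Cyclin D genes moved in opposite directions. Ccnd1 read 238 and 259 CPM in the members, 103 and 116 CPM in other Acan cells (1.30 ± 0.22, adjusted p = 0.0014) and 10.6 and 18.8 CPM in Ibsp-high cells (3.86 ± 0.26, adjusted p = 1.7e-06). Ccnd2 read 26.9 and 41.4, 106 and 125 and 176 and 212 CPM in the same order (-1.88 ± 0.24, adjusted p = 2.6e-04 and -2.56 ± 0.24, adjusted p = 1.4e-05). In neither gene did the libraries of the members overlap those of the other Acan or Ibsp-high cells, but without the library block Ccnd1 was not called against other Acan cells (1.71). These cells are non-cycling by the rule, so the lower level of 20 of 21 G2 and M phase genes than in other Acan cells, which still held cycling cells, follows from the choice of cells. Cdkn1c, a cell cycle inhibitor of maturing chondrocytes, read 276 and 225 against 137 and 153 CPM (0.89 ± 0.18, adjusted p = 0.004). Its call was lost without replicate 2 (0.62), without the library block (1.22) and with the gate on thinned cells (0.46).

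Among transcription factors, Barx2, a homeobox factor known from cartilage, was low in level but higher in the members than in either population. It read 42.4 and 43.3 CPM in the members, 10.8 and 11.3 CPM in other Acan cells (2.01 ± 0.12, adjusted p = 9.3e-06) and 1.42 and 2.04 CPM in Ibsp-high cells (4.46 ± 0.17, adjusted p = 1.4e-07). Runx3 read 171 and 159 CPM against 14.7 and 20.6 CPM in Ibsp-high cells (2.91 ± 0.27, adjusted p = 1.6e-05), and Runx2 read 383 and 494 against 125 and 117 CPM (1.36 ± 0.36, adjusted p = 0.0091). These Runx factors drive chondrocyte maturation. Mef2c, another driver of hypertrophy, was lower than in Ibsp-high cells, at 64.1 and 42.1 against 155 and 129 CPM (-1.57 ± 0.15, adjusted p = 2.0e-05). Sox9, the master factor of cartilage, read 1532 and 1703 CPM against 1249.5 and 1491 and 1315 and 1575 CPM. It did not pass against other Acan cells (0.06 ± 0.27, adjusted p = 0.87), although it did without replicate 1 (0.30, adjusted p = 0.0037), nor against Ibsp-high cells (0.20 ± 0.25, adjusted p = 0.54), where its sign turned without replicate 1 (-0.02).

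Called genes with the same direction in every library and at least 50 CPM in the higher population were ranked by fold change. Gate genes and listed markers were left out of this ranking. Within these limits, the 10 genes with the largest increases over other Acan cells included receptors and secreted proteins. Nrp1, a receptor for semaphorins and VEGF, read 160.1 and 198 against 38.9 and 49.7 CPM (2.26 ± 0.38, adjusted p = 0.0014). C1qtnf3, a secreted protein of cartilage, read 277 and 270.3 against 74.3 and 59.1 CPM (2.11 ± 0.25, adjusted p = 3.1e-04), and Hilpda, a lipid droplet protein, 103 and 123 against 26.7 and 31.9 CPM (2.03 ± 0.12, adjusted p = 8.5e-06). Without the library block the call of C1qtnf3 (2.62) was lost. F5, Tnc, R3hdml, Syt8, Pth1r and Tafa2 were also among the 10 genes, with log2 fold changes between 1.85 and 2.25. The 10 largest decreases under those limits had log2 fold changes between -4.46 and -3.23. They were Prg4, Gas1, Angptl7, Cilp, Clu, Cytl1, Sbsn, Msmp, Abi3bp and Rbp4. Of the 16522 genes tested, 573 (3.47%) were higher by at least 2-fold and 2064 (12.5%) lower by at least 2-fold, so the larger differences were mostly towards lower levels in the members.

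The second question was how the members stand to the Ibsp-high cells, which carry later genes but not only those. The superficial and articular list summed to 35549 and 34456 CPM in them, against 2212 and 4564 CPM in the members. The resting zone list summed to 6897 and 6698 against 3787 and 4220 CPM. Whether the differences below follow maturation was not tested. Here 8429 of 16522 genes (51.0%) passed, 4258 higher (25.8%) and 4171 lower (25.2%), and with replicate 2 or replicate 3 left out the counts were 1975 and 2537. The mineralization gene Alpl read 183 and 184 CPM in the members and 875 and 921 CPM in Ibsp-high cells (-2.73 ± 0.32, adjusted p = 7.2e-05), Spp1 (osteopontin) 332 and 580.3 against 4551 and 4302 CPM (-3.51 ± 0.20, adjusted p = 6.9e-07) and Col10a1 42.8 and 38.5 against 422 and 405 CPM (-3.17 ± 0.66, adjusted p = 0.0026). Ihh read 3.59 and 1.24 against 4.20 and 3.95 CPM and did not pass (-0.98 ± 0.44, adjusted p = 0.086), but did so without replicate 1 (-0.91, adjusted p = 0.042). Panx3 was higher in the members, at 49.6 and 35.6 against 4.67 and 4.65 CPM (2.72 ± 0.47, adjusted p = 8.5e-04), a call lost with DESeq2 (2.04).

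Of 19 matrix genes tested between these populations, 11 were higher in the members and 5 lower, beside 25.8% and 25.2% of all genes tested. The count of lower genes lay near the share over all genes. Ucma read 1995 and 2081 against 310.4 and 386 CPM (2.35 ± 0.12, adjusted p = 6.2e-07), Col9a3 6592 and 5918 against 1445 and 1518 CPM (1.77 ± 0.17, adjusted p = 1.9e-05; 2.38 and not called without the library block) and Mgp, an inhibitor of calcification, 18917 and 18462 against 4642 and 4413 CPM (1.87 ± 0.09, adjusted p = 3.6e-07). Chad read 2276 and 2780.1 against 8980.4 and 9537 CPM (-2.03 ± 0.11, adjusted p = 5.6e-07) and Comp 4195 and 3919 against 9542 and 9703 CPM (-1.48 ± 0.11, adjusted p = 4.6e-06). Col2a1 read 43284 and 40158 against 24960.4 and 25616 CPM, yet its log2 fold change was only 0.17 ± 0.38, adjusted p = 0.74 in the fit over 3 libraries. Without replicate 1 it was 0.54, adjusted p = 2.6e-05, and without replicate 2 it was -0.16. Pth1r behaved alike, with 0.21 ± 0.52, adjusted p = 0.76 over 3 libraries, 0.65, adjusted p = 1.4e-05 without replicate 1, -0.42 without replicate 2 and -0.11 without replicate 3. Neither gene thus has a firm direction against Ibsp-high cells, and the cause of the changes was not tested.

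Sulfation genes were higher than in Ibsp-high cells in 17 of 25 cases and lower in 5 (median log2 fold change 0.72), beside 25.8% and 25.2% of all genes. All 10 superficial and articular genes were lower again (median -2.98). Among called genes of at least 50 CPM with 1 direction, the 10 that rose most had log2 fold changes between 3.80 and 5.08. They were C1qtnf3, Tafa2, Syt8, Batf3, Car12, Il17b, Tspan18, Ccnd1, Cpa6 and Ptprn2. The call of Tafa2 was lost with DESeq2 (3.93). C1qtnf3 read 277 and 270.3 against 5.01 and 9.04 CPM (5.08 ± 0.31, adjusted p = 2.2e-06), and Car12, a membrane carbonic anhydrase, 66.8 and 61.9 against 1.83 and 4.14 CPM (4.25 ± 0.23, adjusted p = 6.2e-07). The 10 that fell most under those limits had log2 fold changes between -4.38 and -3.88. They were Myoc, Sparcl1, Angptl7, Omd, Col8a1, Igfbp6, Pdzrn4, Cp, Cytl1 and Wif1. Omd, a proteoglycan of bone, read 239 and 306 against 4144 and 4192 CPM (-4.15 ± 0.15, adjusted p = 1.4e-07), and Wif1, a secreted Wnt inhibitor, 149 and 229 against 2605 and 2462 CPM (-3.88 ± 0.20, adjusted p = 5.1e-07). Type I collagen gene Col1a1 read 300.4 and 276 against 2003 and 1443 CPM, with a log2 fold change of -3.46 ± 0.86, adjusted p = 0.0068 that was -2.75 without replicate 1.

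Comparison with the cycling cells of the same gate asked what distinguishes dividing from non-dividing cells when both carry Prkg2 and Matn3. Cycling cells were 8.29% of the gate in replicate 2 (exact 95% interval 6.84 to 9.94%) and 6.42% in replicate 3 (5.03 to 8.05%), and their median depth was 30362 and 18183 UMIs. In the members, 44 and 39 cells held Mki67 alone and 53 and 35 cells Top2a alone. The test called 2671 genes (16.2%), 1381 higher in the members (8.36%) and 1290 lower (7.81%). It called 1290 without the library block, 4309 without replicate 1, 574 without replicate 2 and 718 without replicate 3. Among called genes of at least 50 CPM outside the cell cycle lists, the 10 with the largest decreases were all division genes. They ran from Esco2 at 0.163 and 0.309 against 113 and 98.5 CPM (-8.77 ± 0.30, adjusted p = 1.6e-08) to Nuf2 at 0.408 and 0.619 against 65.96 and 76.5 CPM (-7.004 ± 0.28, adjusted p = 3.9e-08), a contrast that the rule itself draws.

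Matrix levels barely separated the dividing from the non-dividing cells. Col2a1 read 43284 and 40158 against 46287 and 45437 CPM (0.03 ± 0.38, adjusted p = 0.98), a difference that did not pass, and its sign turned without replicate 2 (-0.02). Of 19 matrix genes 3 were higher and none lower, and without replicate 1 the count was 13 higher. By contrast 8 of 12 resting zone genes were higher in the non-dividing members, with a median log2 fold change of 1.26 against 0.13 over all genes tested. Pthlh read 17.1 and 16.7 against 3.86 and 5.15 CPM (2.14 ± 0.28, adjusted p = 4.3e-04), with 48.4% and 40.3% of the members' Pthlh UMIs in the top 12 and 10 cells, Apoe 842 and 1025 against 265 and 502 CPM (1.495 ± 0.23, adjusted p = 0.0012) and Nt5e (CD73) 450.1 and 431 against 192 and 193 CPM (1.35 ± 0.20, adjusted p = 0.0012). Sfrp5 read 26.7 and 29.8 against 12.2 and 8.82 CPM (1.48 ± 0.34, adjusted p = 0.014). Its call was lost without replicate 3 (1.26) and with a stricter gate of at least 5 Prkg2 and 10 Matn3 UMIs (0.98). Without the library block Pthlh (2.12), Apoe (1.46) and Sfrp5 (1.52) were not called. The cycling cells were the deeper ones, and with the gate on thinned cells Pthlh (1.09), Apoe (1.17) and Sfrp5 (1.73) were not called either. Pthlh, Apoe, Clu and Sfrp5 were each lower in the members than in other Acan cells and higher than in the cycling cells, whereas Nt5e was not called against other Acan cells. Prkg1 followed the same order, with 35.1 and 58.1 CPM in the cycling cells (1.67 ± 0.21, adjusted p = 3.3e-04).

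Among called genes of at least 50 CPM with 1 direction, the 10 highest over the cycling cells had log2 fold changes between 1.65 and 4.22. They were Msmp, Cryab, Cxcl14, Spp1, Penk, Omd, Hmox1, Fmnl2, Prkg1 and Rhoj. With the gate on thinned cells the calls of Msmp (1.63), Cryab (2.24), Hmox1 (1.39) and Fmnl2 (1.61) were lost. Cxcl14, a chemokine, read 155 and 175 against 35.7 and 44.9 CPM (2.22 ± 0.15, adjusted p = 1.7e-06) and Penk, the enkephalin precursor, 113 and 142 against 32.2 and 43.4 CPM (1.92 ± 0.23, adjusted p = 2.2e-04). Msmp read 993 and 166 against 38.3 and 20.6 CPM (4.22 ± 0.41, adjusted p = 3.9e-05), but 12 cells of replicate 2 held 94.7% of its UMIs and 10 cells of replicate 3 held 80.8%, and its call was lost without likely doublets (0.50). The cell cycle inhibitors Cdkn2c and Rbl1 were lower in the members, at 23.4 and 17.6 against 129 and 115 CPM (-2.41 ± 0.12, adjusted p = 2.0e-07) and 3.18 and 3.56 against 30.9 and 35.3 CPM (-3.12 ± 0.25, adjusted p = 9.9e-06). Since the cycling cells were chosen by Mki67 and Top2a, these 2 contrasts between cell cycle genes may be drawn by the rule too, which was not tested.

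Few members carried Ihh itself. A UMI was found in 21 of 1172 cells of replicate 2 (1.79%, exact 95% interval 1.11 to 2.73%) and 13 of 1006 cells of replicate 3 (1.29%, 0.690 to 2.20%), with 88 and 16 UMIs in all. None of the 42 and 72 reference cells held one, with exact upper bounds of 8.41% and 4.99%. After thinning to 5000 UMIs the shares were 0.779% and 1.01% in the members and 0.898% and 1.12% in the Ibsp-high cells. The Ihh-positive members had a median of 26847 and 12331 UMIs against 19748 and 12270 in the rest, so in replicate 2 they were also the deeper cells. Ihh is no part of the rule, and the 34 cells were set against the other members in a separate fit of 4 summed profiles. So few profiles hold little information on the spread between libraries. The very small p-values of this fit should therefore not be read as a measure of that spread.

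That test called 241 of 12555 genes (1.92%), 101 higher in the Ihh-positive cells (0.804%) and 140 lower (1.12%), and DESeq2 called 45. On the prehypertrophic and hypertrophic list 7 of 13 tested genes were higher and none lower, with a median log2 fold change of 1.49 against -0.07 over all genes, and the 7 include Col10a1 and Spp1, whose direction changed under an alternative. Smpd3, a sphingomyelinase needed for matrix mineralization, read 605 and 409.8 CPM with Ihh and 91.9 and 84.8 CPM without (2.53 ± 0.26, adjusted p = 2.1e-18). Cdkn1c read 1386 and 1042 against 247 and 213 CPM (2.41 ± 0.24, adjusted p = 6.2e-21), Pth1r 1489 and 677 against 314 and 270.0 CPM (1.83 ± 0.24, adjusted p = 1.6e-11), Panx3 403 and 114 against 40.6 and 34.5 CPM (2.73 ± 0.30, adjusted p = 6.3e-16) and Mef2c 418 and 96.8 against 55.1 and 41.3 CPM (2.32 ± 0.30, adjusted p = 1.9e-11). In each of these genes both libraries of the Ihh-positive cells lay above both of the Ihh-negative cells. Matn1, a matrix gene, did the same at 190.1 and 68.3 against 39.6 and 26.2 CPM (2.01 ± 0.32, adjusted p = 2.1e-07). Foxa2, a transcription factor that acts on hypertrophic genes, read 52.4 and 5.69 against 6.78 and 5.64 CPM (2.46 ± 0.57, adjusted p = 0.0023), and its replicate 3 value with Ihh did not lie above the values without.

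**Figure D4:**
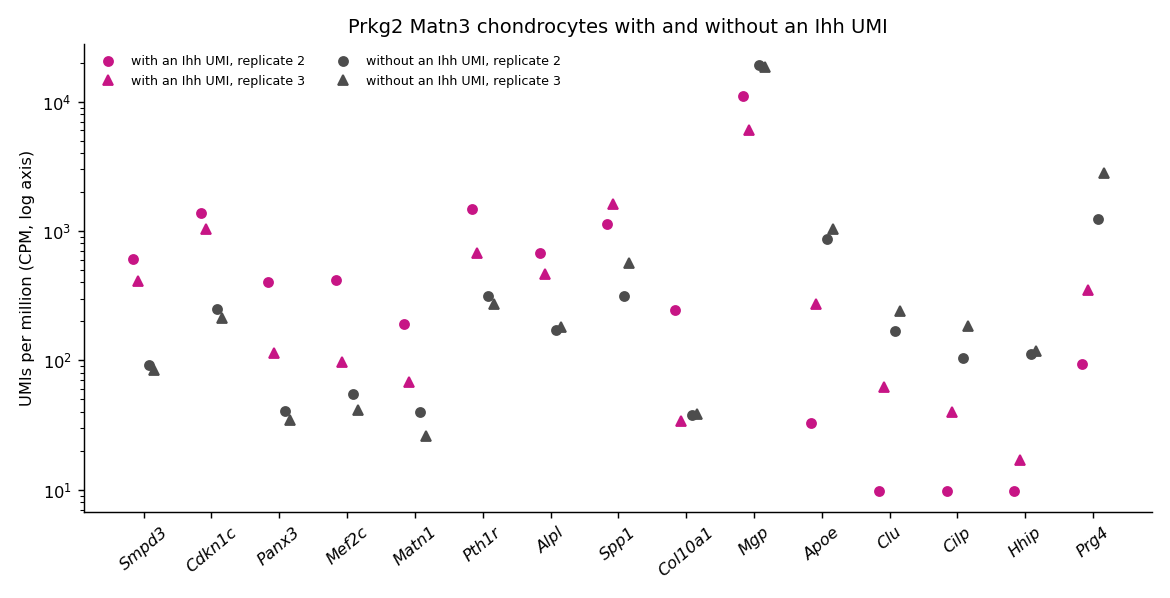
CPM (log axis) of 15 genes in members with and without an Ihh UMI, 1 point per library and class (circles replicate 2, triangles replicate 3). Genes from Smpd3 to Spp1 lie higher with Ihh in both libraries and genes from Mgp to Prg4 lower, while for Col10a1 the classes overlap.

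Late hypertrophic genes were less secure in the Ihh-positive cells. Alpl read 677 and 467 against 170.4 and 180.0 CPM (1.72 ± 0.25, adjusted p = 6.7e-09). Col10a1 read 244 and 34.2 against 37.7 and 38.6 CPM (1.89 ± 0.33, adjusted p = 3.3e-06), with replicate 3 no higher than without Ihh, and its fold change was -1.02 and did not pass when cells with over 10% mitochondrial UMIs were left out. Spp1 read 1124 and 1628 against 312 and 566 CPM (1.70 ± 0.23, adjusted p = 5.6e-11) and turned to -0.88 without likely doublets. Neither gene can therefore be given a firm direction here.

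Resting and surface genes were lower with Ihh, 6 of 12 and 5 of 8 tested genes, and 1 resting zone gene, Foxa2, was higher. Apoe read 32.8 and 273 against 863 and 1036 CPM (-3.19 ± 0.28, adjusted p = 1.4e-26), Clu 9.83 and 62.6 against 168 and 239 CPM (-2.95 ± 0.37, adjusted p = 2.4e-12) and Mgp 11139 and 6028 against 19116 and 18633 CPM (-1.19 ± 0.18, adjusted p = 6.9e-08; -1.08 and not called without the library block). Hhip, which binds hedgehog proteins and is itself a hedgehog target, read 9.83 and 17.1 against 111 and 119 CPM (-3.21 ± 0.45, adjusted p = 7.9e-10). Prg4 read 93.4 and 347 against 1231 and 2806 CPM (-3.35 ± 0.25, adjusted p = 2.6e-37), where the level without Ihh rests on few cells. Prkg2, which the rule fixes in both classes, stood at 628 and 546 CPM with Ihh and 679 and 715 CPM without. The log2 fold change of Npr2 was -1.40 ± 0.51, adjusted p = 0.18 and did not pass. Among called genes of at least 50 CPM with 1 direction, the 10 highest with Ihh also held Il1rapl2, Mustn1, Slc8a3 and Pak3 (1.98 to 3.30). The 10 lowest also held Msmp, Srgn, Rbp4, Cilp2, Cilp and C4b (-4.29 to -2.65). Without likely doublets Mustn1 (0.16) and Msmp (-0.36) were not called. DESeq2 did not call Pak3 (1.87), Srgn (-4.18) or C4b (-2.53). Il1rapl2 read 192 and 22.8 CPM with Ihh against 12.3 and 10.2 CPM without.

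Members were not uniform, and Mgp had the highest ratio of variance to mean when the lower of the 2 libraries was taken for each gene. Among members thinned to 5000 UMIs, the variance of Mgp over its mean was 214 in replicate 2 and 196 in replicate 3, where the median over the 645 genes with a mean of at least 1 UMI in both libraries was 1.73 and 1.60. Its 10th percentile, median and 90th percentile were 11, 42 and 257.5 UMIs in replicate 2 and 12, 44 and 245 in replicate 3. Col2a1, with a ratio of 39.99 and 33.97, ran from 97 through 210 to 321 UMIs and from 88.1 through 190 to 301 over the same percentiles. Ppa1, a marker of the cells, ran from 0 through 4 to 48 and from 0 through 4 to 43 UMIs. Many members thus held very little of that marker. Prg4, Col1a1, Ibsp and Spp1 had ratios of 63.7 or more in both libraries but medians of 1 UMI or less.

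**Figure D5:**
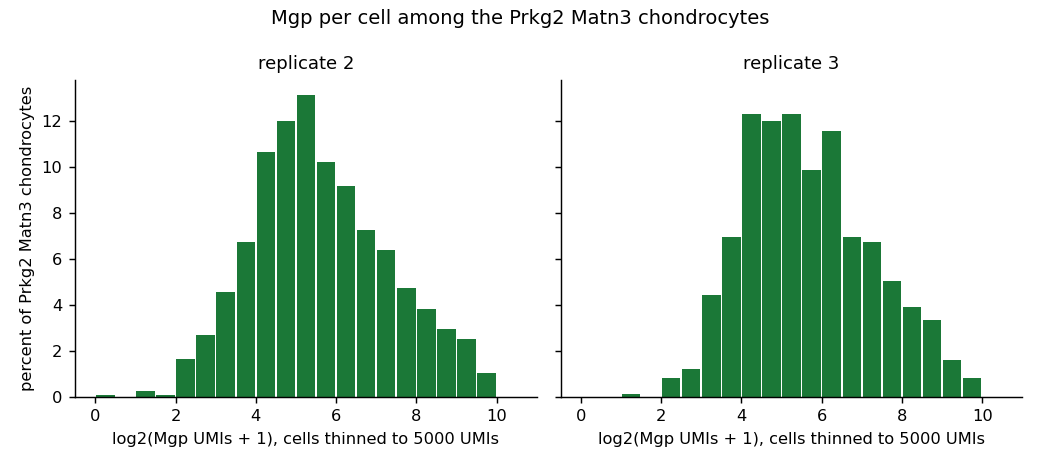
Share of members (percent) in bins of log2(Mgp UMIs + 1) for cells thinned to 5000 UMIs, replicate 2 at left and replicate 3 at right. In both libraries the distribution is broad, with medians of 42 and 44 UMIs and 90th percentiles of 257.5 and 245 UMIs.

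The members with the least and the most Mgp, as groups of equal size (385 cells each in replicate 2 and 330 each in replicate 3) were described side by side without a test, with genes chosen after their values were seen. Their median depths were 20678 against 18705 UMIs and 12840 against 11762.5 UMIs. Ppa1 read 4275 and 3908 CPM in the low group and 1819.7 and 1632 CPM in the high group. Matn1 read 72.97 and 39.98 against 10.2 and 9.12 CPM, Fkbp11 238 and 187 against 92.9 and 73.9 CPM and the interleukin gene Il17b 134 and 136 against 52.6 and 36.5 CPM. These genes, and Fxyd2 at 1436 and 1404 against 975 and 985 CPM, went with low Mgp. Osteoblast markers went with it too, with Col1a1 at 609 and 470.5 CPM in the low group and 124 and 187 CPM in the high group, Bglap at 228 and 153 against 88.9 and 52.6 CPM and Bglap2, a near-identical copy of it, at 66.6 and 60.2 against 23.8 and 14.9 CPM, and their part in these differences was not tested. In the high group Chil1 read 357 and 282 CPM against 92.6 and 86.9 in the low group, Lum 473 and 322 against 192 and 146 CPM, the antitrypsin gene Serpina1a 346 and 422 against 142 and 95.4 CPM, Apoe 1210.0 and 1373 against 685 and 841 CPM and the Wnt inhibitor gene Notum 82.3 and 106 against 33.6 and 38.2 CPM. The Serpina1 genes are near-identical copies whose reads can be split between them. Prkg2 was similar in the low and the high group, at 624 and 696 against 720.3 and 762 CPM, and so was Ucma, at 2002 and 2084 against 2001 and 2016 CPM.

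Genes whose level followed Prkg2 most closely over the 10 summed profiles were named by Pearson correlation of log2(CPM + 10), as a description, since the sums share libraries and the rule sets Prkg2. They were R3hcc1 (r = 0.989), Kdelr2 (0.982), Mrpl20 (0.980), Mtpn (0.979), Cryba4 (0.979), Mrpl50 (0.978), Gcnt1 (0.977), Trim35 (0.976), Rbm17 (0.976) and Loxl2 (0.976), out of 16501 genes. Loxl2, which cross-links collagen, read 226 and 234 CPM in the members, 221 and 226 CPM in the cycling cells, 108 and 117 CPM in other Acan cells and 65.5 and 75.7 CPM in Ibsp-high cells. Kdelr2, which returns escaped chaperones to the endoplasmic reticulum, read 327 and 317 CPM in the members against 245 and 259 CPM in other Acan cells. None of the 10 was a gate gene or a marker.

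The ion transport list, which holds Fxyd2, and the pyrophosphate and phosphate genes beside Ppa1 were read against other Acan cells. Fxyd1, of the same family as Fxyd2, was lower, at 75.8 and 84.2 against 170.2 and 179 CPM (-1.17 ± 0.16, adjusted p = 4.1e-04). Of the 19 tested genes of the ion transport list, 3 were higher and 8 lower, beside 19.0% and 21.2% of all genes tested. The count of higher genes lay near the share over all genes. Beside the high Ppa1, the gene Ank, which exports pyrophosphate, read 414 and 473 against 569 and 655 CPM (-0.60 ± 0.25, adjusted p = 0.077) and passed only without replicate 1 (-0.40, adjusted p = 0.004), without likely doublets (-0.68) and with sums of any number of cells (-0.94). The phosphate carrier Slc20a1 read 127 and 146 against 217 and 280.3 CPM (-0.97 ± 0.22, adjusted p = 0.0067), a call lost without replicate 3 (-1.002). Mgp read 18917 and 18462 against 17775 and 19794 CPM and did not pass (0.05 ± 0.09, adjusted p = 0.66).

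The surface protein used for the sort had little transcript in these cells. Alcam read 10.53 and 11.6 CPM in the members, 18.5 and 15.8 CPM in other Acan cells and 3.38 and 5.60 CPM in Ibsp-high cells, against 182 and 206 CPM in the Ptprc-positive reference cells. A UMI was found in 5.54% and 5.54% of thinned members and in 61.0% and 43.9% of the thinned reference cells. The difference from other Acan cells (-0.60 ± 0.21, adjusted p = 0.039) was lost with either library of members left out (-0.68 without replicate 2, -0.86 without replicate 3). The call was also lost with DESeq2 (-0.75), without the library block (-0.71) and with only cells of at least 5000 UMIs (-0.57). Itga8, the integrin of the study's question, read 5.84 and 6.50 CPM in the members, 10.9 and 15.4 CPM in cycling cells, 8.27 and 7.93 CPM in other Acan cells and 1.56 and 1.66 CPM in Ibsp-high cells. It was not called against other Acan cells (-0.31 ± 0.18, adjusted p = 0.2), was lower than in cycling cells (-0.88 ± 0.27, adjusted p = 0.049) and higher than in Ibsp-high cells (1.68 ± 0.25, adjusted p = 3.1e-04). The calls against cycling and Ibsp-high cells were lost without replicate 2 (-1.09 and 1.51) and without replicate 3 (-0.77 and 1.496), and the call against cycling cells also with DESeq2 (-0.97), without the library block (-0.89), with only cells of at least 5000 UMIs (-0.89) and at a mitochondrial limit of 10% (-0.84). An Itga8 UMI was found in 3.29% and 2.72% of thinned members and in none of the thinned reference cells.

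The remaining lists gave mixed counts against other Acan cells, to be read beside the 19.0% of all genes that were higher and the 21.2% that were lower. Of 20 tested chondrocyte transcription factors 8 were higher and 2 lower, of 13 hedgehog and PTHrP genes 3 were higher and 3 lower, and of 13 cell cycle exit genes 2 were higher and 3 lower. Of 18 FGF and IGF genes, which slow or sustain chondrocyte growth, 1 was higher and 7 lower, with a median log2 fold change of -0.27. Of 27 glycolysis and hypoxia genes 3 were higher and 10 lower, with a median of -0.22. The 12 bone-lining and niche genes had 1 higher and 5 lower members, among them the niche factors Kitl and Angpt1. Against Ibsp-high cells, where 25.8% of all genes were higher and 25.2% lower, the FGF and IGF list had no higher and 11 lower genes, and 8 of 10 osteoblast markers were lower. The hedgehog and cell cycle exit counts against other Acan cells lay near the share over all genes.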

How the data were processed

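The 3 single-cell 3′ libraries (replicates 1 to 3) of sorted wild-type mouse bone-lining cells were analysed. The authors aligned the reads to mm10 with Cell Ranger 7.1.0, per the labels and methods, and deposited filtered matrices of raw UMI counts per gene and barcode. Barcodes were filtered at a minimum of 200 genes and a maximum of 20% mitochondrial UMIs, and doublets were removed only in an alternative. Counts were summed per library and population, for sums of at least 10 cells, and tested with edgeR 4.0.16 (quasi-likelihood, TMM, filterByExpr, library as a block, R 4.3.3) with Benjamini-Hochberg adjustment at 0.05. All adjusted p-values in the report come from edgeR fits of this kind, and ± is the standard error of the log2 fold change. The Ihh split had a fit of its own, and values given for a named alternative come from a refit under it. DESeq2 1.42.0 was an alternative. Sums of 1 library share their cells' preparation, which is where the pairing by library comes from. The fit was tested on simulated data. Named genes were the gate genes and markers, members of gene lists, and in each comparison the 10 largest changes up and the 10 down among called genes with 1 direction in every library and at least 50 CPM in the higher population. Gate genes, listed markers, mitochondrial, ribosomal protein, haemoglobin, immunoglobulin, Gm and Rik genes and sex-linked genes were left out of that rule, and some results are not reported here. Members and lists were chosen with earlier results of these data known. Depth was 20842355, 78895733 and 69486774 UMIs in the filtered cells of replicates 1, 2 and 3.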

Additional observations from a re-analysis of the deposited data

How the results depend on the processing

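Counts of called genes moved by over 1.5 times as follows. Against other Acan cells, 3229 genes were called without the library block (the pairing of populations by library), 2442 with the gate on cells thinned to 5000 UMIs, and 791 to 8593 with 1 replicate left out. Against Ibsp-high cells the range with 1 replicate left out was 1975 to 9797. Against cycling cells the count was 1290 without the block, 1256 with the thinned gate, and 574 to 4309 with 1 replicate left out. For the Ihh split, DESeq2 called 45 genes and sums of any number of cells 137; the fit could not be made without replicate 2 or 3, and the thinned gate gave no sums of 10 cells. The number of members was 943 with the thinned gate and 1010 to 2178 with 1 replicate left out. Leaving out replicate 2 or 3 leaves 1 library of members, assumed to vary like the other sums. The named genes gave 1883 values under alternatives, of which 1765 kept direction and side of the threshold, 85 were no longer called, 11 became called and 22 changed sign. Without the block 26 of 153 named values were no longer called and none changed sign. The log2 fold changes behind the sign changes were as follows. Col10a1 (members with against without an Ihh UMI) read -1.02 (mitochondrial limit 10%). Col2a1 (members against Ibsp-high cells) read -0.16 to 0.54 (1 replicate left out). Col2a1 (members against cycling cells of the same gate) read -0.046 (RLE scaling), -0.046 (DESeq2), -0.055 (thinned gate) and -0.016 to 0.042 (1 replicate left out). Comp (members against other Acan cells) read -0.12 (thinned gate), -0.079 (without likely doublets) and -0.027 to 0.20 (1 replicate left out). Mgp (members against other Acan cells) read -0.030 (cells of at least 5000 UMIs), -0.52 (thinned gate), -0.0047 (mitochondrial limit 10%), -0.17 (stricter gate) and -0.059 to 0.15 (1 replicate left out). Pth1r (members against Ibsp-high cells) read -0.42 to 0.65 (1 replicate left out). Sox9 (members against Ibsp-high cells) read -0.017 to 0.39 (1 replicate left out). Sox9 (members against other Acan cells) read -0.0036 (cells of at least 5000 UMIs), -0.10 (thinned gate) and -0.18 to 0.30 (1 replicate left out). Spp1 (members with against without an Ihh UMI) read -0.88 (without likely doublets). The cause of these changes was not tested.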
